A study of Mus musculus with 10 samples.

Results

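The 8 genes described here belong to the TREM2, TYROBP and SYK signalling route and were measured in the cortex of 5XFAD mice with and without deletion of Idol in neurons. They are Trem2, Tyrobp, Syk, Plcg2, Inpp5d, Cd33, Vav1 and Clec7a, chosen by name and found by Ensembl identifier. All 8 were among the 53700 gene identifiers with counts, and all 8 were among the 19268 genes tested, those with a total above 10 over the 10 libraries.

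TREM2 is a lipid- and lipoprotein-sensing receptor of microglia that has no signalling motif of its own. It passes its signal to TYROBP (DAP12), an adaptor whose immunoreceptor tyrosine-based activation motif (ITAM), once phosphorylated by Src family kinases, recruits the kinase SYK, and SYK in turn acts on enzymes such as PLCG2 and on VAV1. The beta-glucan receptor CLEC7A (Dectin-1) also feeds SYK, while the lipid phosphatase SHIP1, encoded by Inpp5d, restrains the route. CD33 is a sialic acid receptor listed with the route, and no role of mouse CD33 as a brake is assumed here. In mouse models of amyloid deposition the route is known for its role in the microglial response around plaques.

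Each of the 10 libraries was made from cortex of female mice at 4 months of age. The sample titles give 5XFAD, Idol and Camk2a-cre cKO for 5 libraries, and 5XFAD, Idol and Camk2a-cre WT for the other 5. These libraries are called, or labelled, 5XFAD;Neu cKO and 5XFAD below, after the names used by the study. The titles do not say which alleles WT covers. Both groups carry the 5XFAD transgenes, which express familial Alzheimer's disease mutations under the neuronal Thy1 promoter. The 5XFAD;Neu cKO mice came from a cross with floxed Idol and Camk2a-Cre mice, so that the deletion is limited to cells with Camk2a promoter activity, chiefly forebrain excitatory neurons, and the 5XFAD mice were littermate controls. Libraries were made with the QuantSeq 3′ kit, in which a transcript gives reads near its 3′ end, so that counts do not grow with transcript length and levels of different genes can be set side by side.

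Reads on genes numbered from 4320504 to 7466192 in libraries labelled 5XFAD and from 5148499 to 7246659 in those labelled 5XFAD;Neu cKO. The targeted gene, Idol (listed as Mylip), was counted 45 to 108 times in the former and 50 to 148 times in the latter, and its log2 fold change of 0.39 (SE 0.25, edgeR quasi-likelihood adjusted p = 0.777) was not lower with the deletion label. Reads near the 3′ end need not cover the deleted part, so the sequencing counts do not check the labels. Libraries are assigned to groups here by their titles. Libraries also differed in whether reads fell on mt-Nd3 or on its nuclear copy Gm28438. Reads were mainly on mt-Nd3 in 5XFAD replicate 2 and in 5XFAD;Neu cKO replicates 1, 3, 4 and 5, and mainly on Gm28438 in the other 5 libraries, so that this split ran largely with the group labels. Values within each kind are given below for the genes that it touches.

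Compared with the libraries labelled 5XFAD, those labelled 5XFAD;Neu cKO held less Tyrobp and less Clec7a, and Trem2 was lower in every such library without passing the threshold across all genes. Syk, Plcg2 and Vav1 had lower means with overlapping groups, and Inpp5d and Cd33 had means close to those of 5XFAD. Of the 8 genes, 2 passed an adjusted p of 0.05 (edgeR quasi-likelihood test, Benjamini-Hochberg over all genes tested), both lower, against 0.161% of all tested genes called lower and 0.218% called in either direction. The groups did not overlap for 3 of the 8, all lower, against 0.721% of all genes in that direction and 1.30% in either. An unadjusted p under 0.05 was reached by 4 of the 8, against 7.95% of all genes. The log2 fold change was below 0 for 7 of the 8, with a median of -1.01, against 50.1% of all genes. Levels are given as CPM, the count scaled to the same library size in each library, and fold changes are of 5XFAD;Neu cKO against 5XFAD. Because a bulk library mixes all cells of the tissue, fewer microglia and less RNA per microglial cell cannot be told apart.

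**Figure D1:**
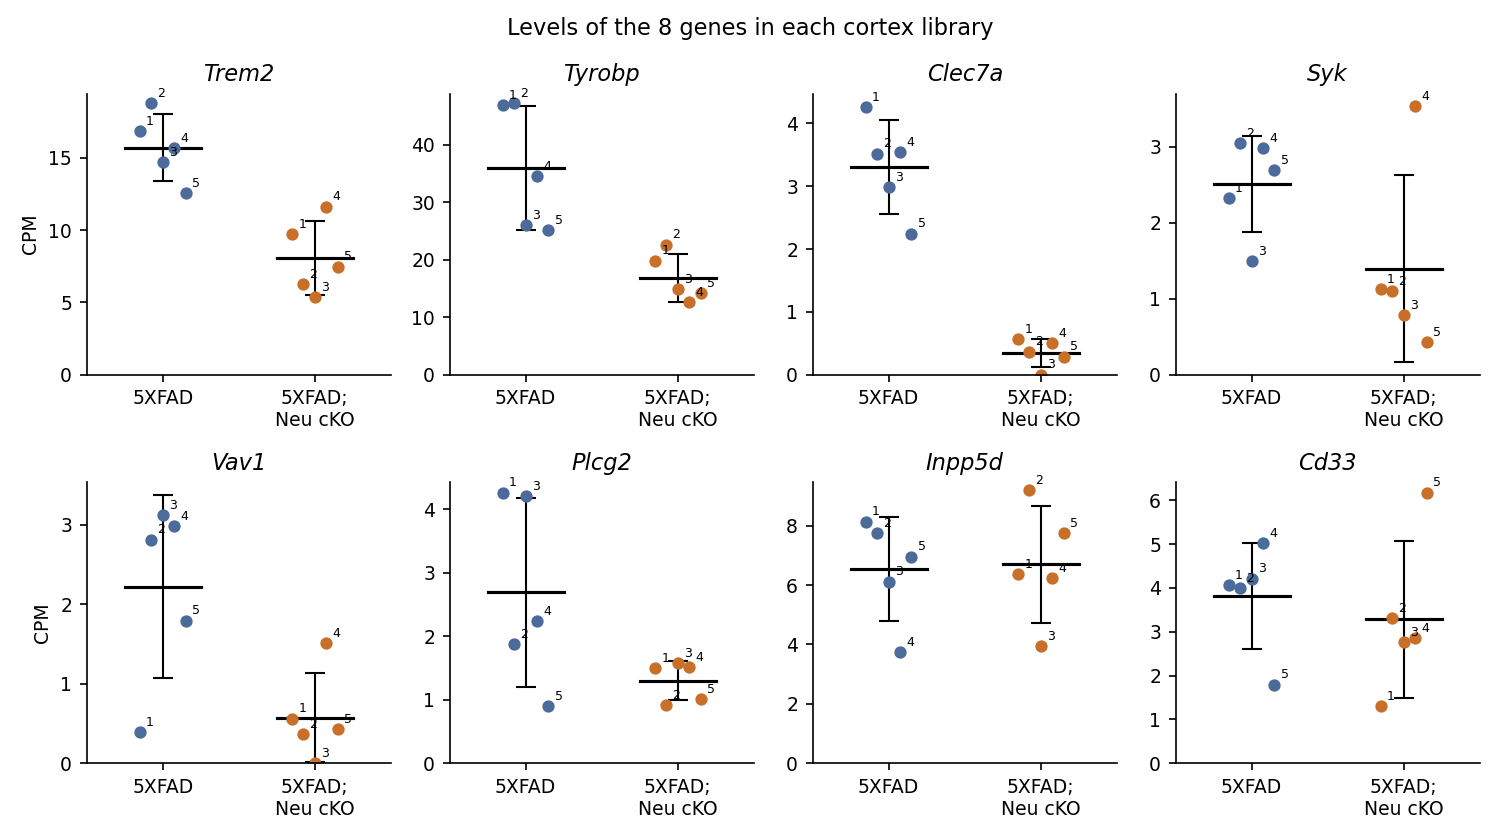
Level of each of the 8 genes in CPM (vertical axes, from 0) in the 5 libraries labelled 5XFAD and the 5 labelled 5XFAD;Neu cKO. Each point is a library numbered by replicate, with the group mean and its SD as bars, and the groups are separate for Trem2, Tyrobp and Clec7a.

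Promoter sequences of 4 of the genes are shown, because the genes differed in how far they moved and because members of a shared route can be compared at their start sites. They are from the RefSeq table for GRCm38.p6, each of 300 bases, from 250 bases before to 50 after the annotated start, 5′ to 3′ on the gene's strand. Capitals mark GAGGAAG, read on either strand (CTTCCTC on the opposite one). It is a longer match around GGAA, the core of binding sites of the myeloid factor PU.1. Counted from the start, Trem2 has the longer match at position -41 on the opposite strand, Inpp5d at -20 and Vav1 at -11. The Clec7a window holds GGAA but not the longer match.
Trem2, chr17:48346151-48346450, plus strand: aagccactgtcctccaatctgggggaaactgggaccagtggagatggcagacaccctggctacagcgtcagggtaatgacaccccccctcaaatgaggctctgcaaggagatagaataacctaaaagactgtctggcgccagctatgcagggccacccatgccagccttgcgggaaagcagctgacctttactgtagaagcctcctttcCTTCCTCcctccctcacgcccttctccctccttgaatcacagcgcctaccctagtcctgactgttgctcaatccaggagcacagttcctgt
Inpp5d, chr1:87620062-87620361, plus strand: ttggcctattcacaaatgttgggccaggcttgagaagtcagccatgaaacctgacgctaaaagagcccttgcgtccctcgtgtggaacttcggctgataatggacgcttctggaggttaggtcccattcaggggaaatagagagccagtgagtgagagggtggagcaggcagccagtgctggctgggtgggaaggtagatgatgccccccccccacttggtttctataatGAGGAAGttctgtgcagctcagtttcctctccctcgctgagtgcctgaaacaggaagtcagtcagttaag
Vav1, chr17:57278850-57279149, plus strand: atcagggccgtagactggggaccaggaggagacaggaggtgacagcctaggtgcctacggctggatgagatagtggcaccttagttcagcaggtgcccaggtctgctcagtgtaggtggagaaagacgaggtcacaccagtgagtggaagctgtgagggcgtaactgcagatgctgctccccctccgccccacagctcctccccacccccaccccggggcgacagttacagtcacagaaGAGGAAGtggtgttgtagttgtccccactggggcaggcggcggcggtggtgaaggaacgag
Clec7a, chr6:129472730-129473029, minus strand: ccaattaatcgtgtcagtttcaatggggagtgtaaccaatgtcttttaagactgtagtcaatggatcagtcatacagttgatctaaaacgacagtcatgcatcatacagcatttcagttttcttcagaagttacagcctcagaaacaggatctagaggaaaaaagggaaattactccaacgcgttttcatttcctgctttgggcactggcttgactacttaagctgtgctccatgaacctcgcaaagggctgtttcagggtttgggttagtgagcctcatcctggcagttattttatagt
The table held promoters of 7 of the 8 genes and none for Tyrobp, and 4 genes held the motif, including Cd33 (at -226), which is not shown. Neither the Syk windows nor the Plcg2 window, also not shown, held it. Of the 9 windows of these genes, 4 did. Of the 32851 promoters in the table, 13.6% held this motif and 96.0% held GGAA on either strand. A match describes these letters and does not show a binding site.

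Tyrobp (ENSMUSG00000030579, chromosome 7, 30113170 to 30117010 of GRCm39, plus strand) encodes the ITAM adaptor of TREM2 and of several other myeloid receptors. Its CPM in the libraries labelled 5XFAD was 46.9, 47.2, 25.9, 34.5 and 25.1, in order of replicate number, and the libraries labelled 5XFAD;Neu cKO read 19.8, 22.6, 14.8, 12.6 and 14.2. Every 5XFAD;Neu cKO library lay below every 5XFAD library, with 22.6 CPM as the highest of the former and 25.1 as the lowest of the latter. The mean fell from 35.9 ± 10.8 (SD, n = 5) to 16.8 ± 4.21 (n = 5), a log2 fold change of -1.10 (SE 0.19, 95% interval -1.47 to -0.72, edgeR quasi-likelihood adjusted p = 0.000564). An exact two-sided permutation test of mean log2 CPM gave p = 0.00794, the smallest that 5 against 5 libraries can give. Hcst, which encodes the related adaptor DAP10, ends 124 bases from the end of Tyrobp on the opposite strand, and with the strand setting of the counting not stated, reads between them could not be assigned with certainty. Hcst itself was counted 0 to 16 times per library and Tyrobp 75 to 242 times.

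Trem2 (ENSMUSG00000023992, chromosome 17, 48653429 to 48661175 of GRCm39, plus strand) encodes the receptor itself. Its CPM was 16.9, 18.8, 14.7, 15.7 and 12.6 across the 5XFAD libraries, again by replicate number, and 9.72, 6.25, 5.38, 11.6 and 7.47 across the 5XFAD;Neu cKO libraries. The groups did not overlap, and the nearest libraries were 11.6 and 12.6 CPM. The mean was 15.7 ± 2.33 in 5XFAD and 8.09 ± 2.56 in 5XFAD;Neu cKO, a log2 fold change of -0.96 (SE 0.25, 95% interval -1.47 to -0.45) with an edgeR adjusted p = 0.0994, above the threshold of 0.05. The exact two-sided permutation test gave p = 0.00794. Trem2 was the 72nd gene by p-value of the 19268. Leaving out each library in turn gave log2 fold changes from -1.13 to -0.84 with adjusted p from 0.0694 to 0.387, the highest without 5XFAD;Neu cKO replicate 3.

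Clec7a (ENSMUSG00000079293, chromosome 6, 129438554 to 129449742 of GRCm39, minus strand) encodes Dectin-1. The 5XFAD libraries held 22, 15, 22, 19 and 10 reads of it (2.24 to 4.26 CPM), and the 5XFAD;Neu cKO libraries 3, 2, 0, 3 and 2 reads (0 to 0.561 CPM). Every 5XFAD library therefore held more reads than any 5XFAD;Neu cKO library, but no library held more than 22. The means of 3.31 ± 0.749 and 0.344 ± 0.221 CPM differed by a log2 fold change of -3.24 (SE 0.77, 95% interval -4.78 to -1.69, edgeR adjusted p = 0.0468), with exact permutation p = 0.00794. The call is close to the threshold and was lost in 9 of the 10 fits with a library left out, all but that without 5XFAD;Neu cKO replicate 1 (adjusted p = 0.0368). The largest adjusted p was 0.156, without 5XFAD replicate 2.

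These 3 genes were also compared within each side of the split between mt-Nd3 and Gm28438. Among libraries with reads mainly on mt-Nd3, Trem2 was 18.8 CPM in the single 5XFAD library and 5.38 to 11.6 CPM in the 4 5XFAD;Neu cKO libraries, and Tyrobp was 47.2 against 12.6 to 19.8. Among those mainly on Gm28438, Trem2 was 12.6 to 16.9 CPM in 4 5XFAD libraries and 6.25 in the single 5XFAD;Neu cKO library, and Tyrobp was 25.1 to 46.9 against 22.6. Clec7a was 3.52 against 0 to 0.561 CPM in the first kind and 2.24 to 4.26 against 0.368 in the second. The differences were therefore present within both kinds, each with a single library on one side. With the kind as a covariate the log2 fold change of Tyrobp was -1.10 (edgeR adjusted p = 0.00289), that of Trem2 -1.20 (adjusted p = 0.0681) and that of Clec7a -3.24 (adjusted p = 0.104), so that the Clec7a call was lost at the same fold change.

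Syk (ENSMUSG00000021457, chromosome 13, 52736696 to 52802828, plus strand) encodes the kinase that binds the phosphorylated ITAM. It was counted 11 to 16 times in the 5XFAD libraries (1.49 to 3.05 CPM). The 5XFAD;Neu cKO libraries held 6, 6, 6, 21 and 3 counts, and replicate 4, at 3.53 CPM, stood above every other library of the series. The means of 2.51 ± 0.635 and 1.40 ± 1.23 CPM gave a log2 fold change of -0.84 (SE 0.66, 95% interval -2.17 to 0.49), with edgeR adjusted p = 0.864 and exact permutation p = 0.0635. Without 5XFAD;Neu cKO replicate 4 the log2 fold change was -1.53, also not past the threshold.

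Of the direct effectors, Plcg2 (ENSMUSG00000034330, chromosome 8, 118224988 to 118361881, plus strand), the phospholipase that makes inositol trisphosphate and diacylglycerol, had 22, 8, 31, 12 and 4 counts across the 5XFAD libraries and 8, 5, 12, 9 and 7 across the 5XFAD;Neu cKO libraries. The 5XFAD libraries spread from 0.898 to 4.26 CPM and the 5XFAD;Neu cKO libraries lay between 0.920 and 1.58 CPM, inside that range. The log2 fold change was -1.05 (SE 0.63, 95% interval -2.32 to 0.21) with edgeR adjusted p = 0.746 and exact permutation p = 0.0952. Vav1 (ENSMUSG00000034116, chromosome 17, 57586095 to 57636235, plus strand), a guanine nucleotide exchange factor for Rac, was counted 2, 12, 23, 16 and 8 times in 5XFAD and 3, 2, 0, 9 and 3 times in 5XFAD;Neu cKO. Its means of 2.22 ± 1.15 and 0.575 ± 0.565 CPM gave a log2 fold change of -1.94 (SE 0.86, 95% interval -3.65 to -0.22), with edgeR unadjusted p = 0.0276, adjusted p = 0.539 and exact permutation p = 0.0397. The overlap came from 5XFAD replicate 1, at 0.388 CPM, since the other 4 5XFAD libraries lay at 1.80 to 3.12 CPM and the highest 5XFAD;Neu cKO library at 1.51 CPM. At these counts the intervals of both genes are wide.

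For Inpp5d and Cd33 no change was detected. Inpp5d (ENSMUSG00000026288, chromosome 1, 87547989 to 87648230, plus strand) was 8.14, 7.74, 6.11, 3.73 and 6.96 CPM in 5XFAD and 6.36, 9.20, 3.94, 6.23 and 7.76 CPM in 5XFAD;Neu cKO. The groups covered nearly the same range. The log2 fold change was 0.03 (SE 0.33, 95% interval -0.64 to 0.71, edgeR adjusted p = 0.994, exact permutation p = 0.889). Cd33 (ENSMUSG00000004609, chromosome 7, 43173634 to 43193875, minus strand) was 4.07, 3.99, 4.21, 5.03 and 1.80 CPM in 5XFAD and 1.31, 3.31, 2.76, 2.86 and 6.18 CPM in 5XFAD;Neu cKO. Its highest value was in a 5XFAD;Neu cKO library and its log2 fold change was -0.21 (SE 0.47, 95% interval -1.15 to 0.72, edgeR adjusted p = 0.973, exact permutation p = 0.532). Both intervals include changes of the size seen for microglia markers or larger. Opposite-strand non-coding genes overlap the last exons of Plcg2, Inpp5d and Cd33 in the annotation, and without a stated strand setting reads from those cannot be told apart.

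**Figure D2:**
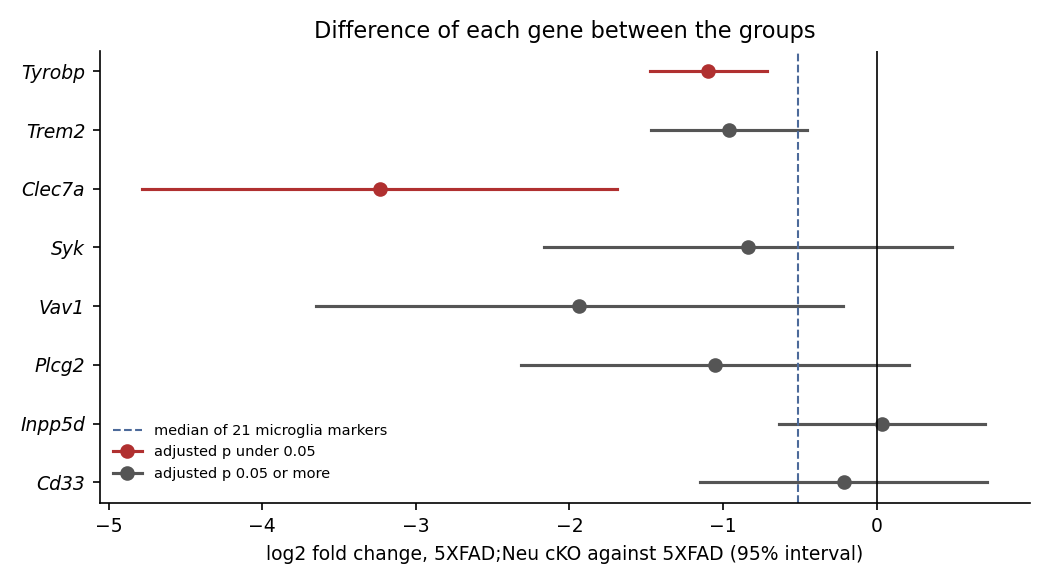
Log2 fold change of each of the 8 genes (horizontal axis, points) with its 95% interval (lines) from the edgeR fit, in red where the adjusted p was under 0.05 and grey otherwise. The dashed line is the median of the 21 microglia markers, -0.51, and the intervals of Inpp5d and Cd33 include 0.

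The other genes of the route, taken from 7 lists of ligands and sheddases, ITAM adaptors, ITAM-coupled receptors, Src family kinases, SYK effectors, brakes and inhibitory receptors, were read from the same fit. Of 90 genes written, 73 were tested, and the log2 fold change was below 0 for 43 of them (58.9%, against 50.1% of all genes), with a median of -0.06. None passed the threshold in the edgeR quasi-likelihood test, 11 had an unadjusted p under 0.05, and DESeq2 called 1, Apoe. Apoe, the lipoprotein that is a TREM2 ligand, was 1222 ± 135 CPM in 5XFAD and 1015 ± 57.6 in 5XFAD;Neu cKO, with groups that did not overlap and a log2 fold change of -0.27 (SE 0.07, edgeR adjusted p = 0.0997). Clu, another apolipoprotein ligand, had a log2 fold change of -0.18 (SE 0.07, adjusted p = 0.483).

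Among the 7 lists the ITAM-coupled receptors had the lowest median. All 8 tested ITAM-coupled receptors of 17 had a log2 fold change below 0, with a median of -0.81, and the other 9 were at or near 0 reads. Treml2 and Clec4n, the lowest at -3.17 and -2.79, held only 12 and 16 reads over all libraries. They passed the filter on low counts through their reads in 5XFAD. The count of 8 and the median therefore rest in part on that filter. Siglech, a sialic acid-binding receptor that signals through TYROBP, was 15.6 ± 5.36 CPM in 5XFAD and 8.78 ± 1.62 in 5XFAD;Neu cKO (log2 fold change -0.83, SE 0.25, edgeR adjusted p = 0.248). Itgam, the integrin subunit of complement receptor CR3, was 10.5 ± 3.26 and 6.41 ± 1.51 CPM (log2 fold change -0.72, SE 0.30, adjusted p = 0.488). The adaptor Fcer1g was 16.7 ± 4.39 and 11.6 ± 1.81 CPM (log2 fold change -0.52, SE 0.23, adjusted p = 0.544). None of these passed the threshold.

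The effectors and brakes had medians closer to 0. The 30 SYK effectors tested had a median of 0.01, with 14 below 0, and the most abundant, Itpr1 (the inositol trisphosphate receptor) and Rac1, had log2 fold changes of -0.13 and 0.06. The 13 brakes had a median of 0.05, with Cbl at 0.17. The 6 Src family kinases had a median of -0.25, with Fyn at 0.09 and Src at 0.34. Of 10 inhibitory receptors tested, 7 lay below 0, with a median of -0.45, Sirpa being at 0.04 and Lair1 at -0.65. Most abundant genes of these lists are expressed by neurons and other cells of the cortex, and their bulk level is not that of microglia.

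The microglia markers were lower as well. Of 21 tested, 20 lay below 0, with a median of -0.51, and 7 passed the threshold, all lower: Cx3cr1, Csf1r, C1qb, C1qc, Ctss, Laptm5 and Mpeg1. The summed level of the list was 574 to 820 CPM in the libraries labelled 5XFAD and 408 to 499 CPM in those labelled 5XFAD;Neu cKO, and did not overlap. Among the genes of the plaque-associated state of microglia, the 5 listed as reached without TREM2 all lay below 0, with a median of -0.32, 4 at unadjusted p under 0.05 and 1 called gene, Ctsd, which fell from 351 ± 43.1 to 217 ± 17.5 CPM (log2 fold change -0.69, edgeR adjusted p = 5.24e-07). The most abundant of them, Fth1, was at -0.12 (adjusted p = 0.747). None of the 11 listed as needing TREM2 passed the threshold in edgeR, with 4 at unadjusted p under 0.05, 9 below 0 and a median of -0.22. Neither list holds any of the 8 genes described here, so that the calls of Tyrobp and Clec7a are not counted in them. The largest by level, Timp2 and Ctsl, had log2 fold changes of -0.19 and -0.22, and Cst7 and Ccl6, chosen after their values were seen, had -1.62 (adjusted p = 0.070) and -1.17 (adjusted p = 0.197).

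Markers of other cells were also measured. Border macrophage markers summed to 6.80 to 16.0 CPM in 5XFAD and 10.2 to 18.3 in 5XFAD;Neu cKO, with 3 of 7 below 0 and none called. Of 12 blood leukocyte markers only 2 were tested, Ccr2 and S100a8, and the list summed to at most 2.72 CPM in any library. All 6 oligodendrocyte markers lay below 0, with a median of -0.28 and summed levels of 1903 to 2793 CPM in 5XFAD and 1714 to 2699 CPM in 5XFAD;Neu cKO. None of them passed the threshold in the edgeR test and 4 had an unadjusted p under 0.05, with Mbp at -0.28 (adjusted p = 0.270) and Mobp, chosen after its values were seen, at -0.43 (adjusted p = 0.0662). Of 6 astrocyte markers 1 passed, Gfap, an intermediate filament, which fell with a log2 fold change of -0.88 (edgeR adjusted p = 0.00202), while the list's median was -0.10 and the abundant Slc1a2 and Aldoc were at -0.04 and -0.06. Excitatory neuron, inhibitory neuron and endothelial markers had medians of -0.04, 0.01 and 0.05, with none called and 0, 2 and 0 at unadjusted p under 0.05. Thy1, whose promoter drives the transgenes, fell by 0.42 on the log2 scale (adjusted p = 0.000826), while App was at -0.05 (adjusted p = 0.934). The part of the microglia and oligodendrocyte markers, of Gfap, of Thy1 and of the split on mt-Nd3 in the lower Tyrobp, Trem2 and Clec7a levels was not tested.

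**Figure D3:**
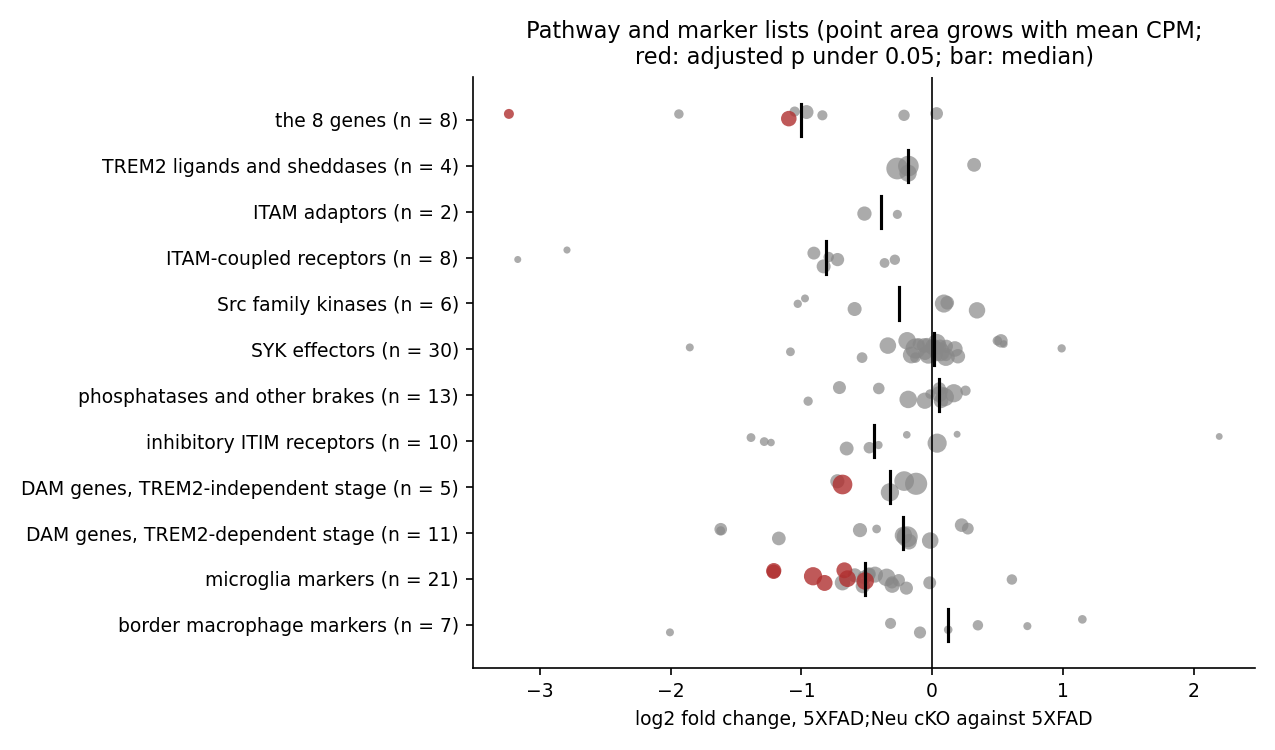
Log2 fold change of every tested gene (horizontal axis, one point a gene, area growing with mean CPM) in the 8 genes and 11 lists, with the median of each as a bar and genes with adjusted p under 0.05 in red. The 8 genes, the ITAM-coupled receptors and the microglia markers have the lowest medians, at -1.01, -0.81 and -0.51.

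Each of the 6 genes with a mean of 5 counts or more per group was then set against the microglia markers, as its count per 1000 counts of the 21 markers, of which a library held 2579 to 4226. Tyrobp was 49.2 ± 8.08 per 1000 in 5XFAD and 35.9 ± 7.38 in 5XFAD;Neu cKO, a mean log2 difference of -0.46 (exact two-sided permutation p = 0.0476, n = 5 per group, unadjusted, 1 of 6 such tests). With a library left out this p was under 0.05 in 3 of 10 repeats, and the highest was 0.0873 (exact permutation). Trem2 was 22.0 ± 2.35 and 17.4 ± 5.47 per 1000, a difference of -0.38 (exact permutation p = 0.143). Both differences were smaller than those in CPM, because the summed markers were themselves lower, by 0.61 on the log2 scale. Inpp5d stood the other way, at 9.18 ± 2.34 and 14.4 ± 4.36 per 1000, a difference of 0.64 (exact permutation p = 0.0556). With a log2 fold change of 0.03 for Inpp5d in CPM, this difference largely restates the lower markers. Whether Inpp5d per microglial cell differed cannot be told in bulk tissue and was not tested. Syk, Plcg2 and Cd33 differed by -0.49, -0.24 and 0.31 (exact permutation p = 0.341, 0.595 and 0.5). Clec7a, too low for a test, was 3.47 to 5.21 per 1000 in 5XFAD and 0 to 1.16 in 5XFAD;Neu cKO, still without overlap.

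**Figure D4:**
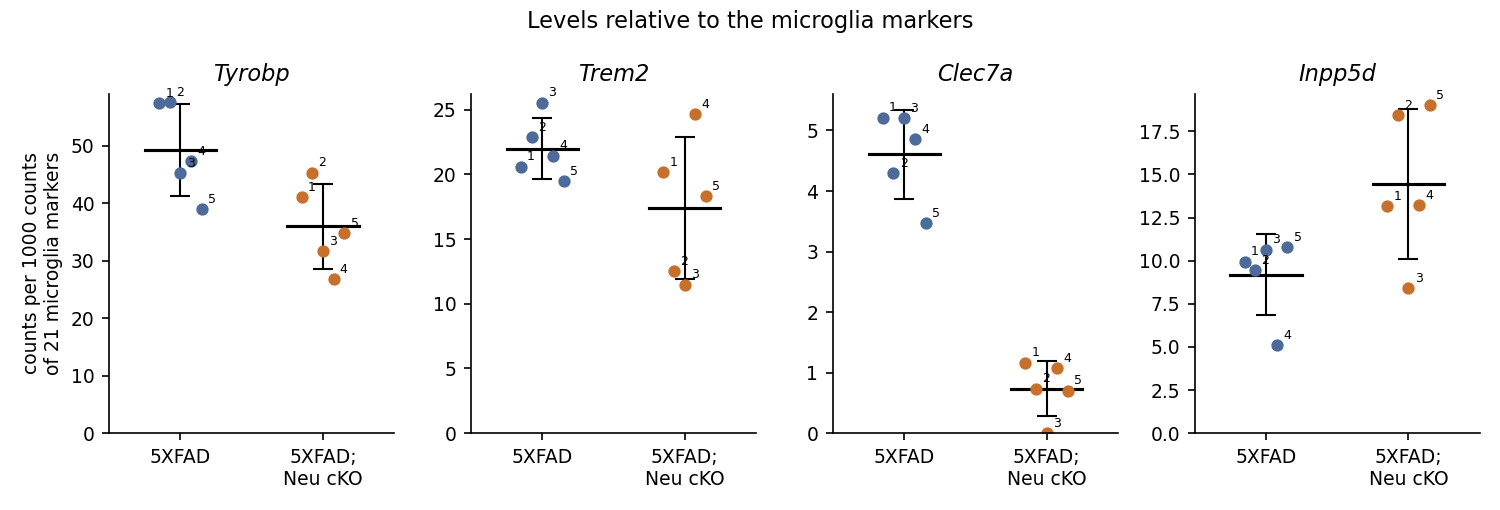
Counts of Tyrobp, Trem2, Clec7a and Inpp5d per 1000 counts of the 21 microglia markers (vertical axes, from 0), with 1 point a library numbered by replicate, the group mean and its SD. Clec7a stays separate between the groups, Tyrobp and Trem2 overlap, and Inpp5d has a higher mean in 5XFAD;Neu cKO.

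Within the set, members were also set against Tyrobp, a denominator chosen after the values were seen, so that these ratios are a description that carries the lower Tyrobp. Permutation tests were run for 5 of the ratios, and their p-values are not used here. Inpp5d counts per 100 Tyrobp counts were 17.4, 16.4, 23.6, 10.8 and 27.7 across the 5XFAD libraries and 32.1, 40.7, 26.5, 49.3 and 54.5 across the 5XFAD;Neu cKO libraries. A single pair of libraries overlapped, 5XFAD replicate 5 at 27.7 and 5XFAD;Neu cKO replicate 3 at 26.5. The mean log2 difference was 1.10, the size of the Tyrobp difference itself, and lay between 0.91 and 1.25 with each library left out. Trem2 per 100 Tyrobp was 45.5 ± 8.15 and 51.5 ± 24.7, a difference of 0.08, with 5XFAD;Neu cKO replicate 4 at 92.0. Within groups, the log2 CPM of Trem2 and Tyrobp had a Pearson r of 0.144 over the 10 libraries after centring each group, and that of Tyrobp and Inpp5d 0.379, as descriptions over libraries that share depth and scaling.

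The genes most like Tyrobp over the 10 libraries, among 12073 with a mean of 20 counts or more, were Plxdc2 (Pearson r 0.959), Rps15a (0.945), Ndufa2 (0.944), Rplp1 (0.933) and Micos13 (0.930). Those most like Trem2 were Zfp605 (0.936), Mvd (0.925), Acsf3 (0.923), Psmb3 (0.914) and Ktn1 (0.911). Inpp5d was most like Drc1 (0.919) and Cd33 most like Pdha1 (0.959). Each r is over 10 libraries that fall in 2 groups and share their scaling.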

How the data were processed

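The authors trimmed QuantSeq reads with bbduk, aligned them with STAR 2.7.3a to GRCm39 and used htseq-count for the gene counts (HTSeq 0.9.1 in the submitters' processing notes); the strand setting is not given in the sources used here. The deposited values are raw counts, whole numbers per gene and library. Reads on no gene (31.3% to 39.9% of reads) entered neither library sizes nor tests. Only genes whose counts summed to more than 10 were kept. Groups were compared with edgeR 4.0.16 in R 4.3.3 (TMM, glmQLFit and glmQLFTest, group as the only term), with Benjamini-Hochberg adjustment over 19268 genes and a threshold of 0.05. Single genes also had an exact two-sided permutation test of mean log2 CPM over 252 relabellings. The labels number the libraries and do not tie them to animals, so p-values measure the spread between libraries. Counts limit the precision, and intervals cover counting and replicate error as fitted. The members and the lists were chosen with earlier results of these data known. Genes named outside the members are the 2 most abundant and every called gene of a list, unless said otherwise. Some genes that this covers are not reported here. Alternatives were DESeq2 1.42.0, other size factors, filters and fits, a replicate block, the mt-Nd3 split as a covariate and each library left out. The fits were tested on simulated data.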

Additional observations from a re-analysis of the deposited data

Results flagged for a closer look

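Syk in 5XFAD;Neu cKO replicate 4, at 3.53 CPM, lay far from the other 4 libraries of its group, which ranged from 0.431 to 1.12 CPM, the gap to the nearest taking 0.777 of the group's range. It was the only one of 16 groups of member values (8 genes in 2 groups) to stand apart in this way, and it rests on 21 counts. Its cause was not tested.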

How the results depend on the processing

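Tyrobp passed the threshold under all 9 alternatives and with each of the 10 libraries left out (log2 fold change -1.22 to -0.98). The number of genes past the threshold, 42, was 73 with DESeq2, 103 with no filter on low counts, 91 with the mt-Nd3 split as a covariate and 26 (without 5XFAD replicate 2) to 72 (without 5XFAD;Neu cKO replicate 1) with a library left out. Clec7a lost its call without mitochondrial genes (-3.24, adjusted p = 0.0521), with the covariate (-3.24, adjusted p = 0.104) and with libraries left out (-3.47 to -2.89), so that 1 member passed in the settings just named and 1 to 2 with a library left out. Of the 8 alternatives with all libraries that gave Clec7a an adjusted p, 6 kept its call. Their adjusted p ran from 0.00384 (DESeq2 without independent filtering) to 0.047 (edgeR with DESeq2 size factors). Same-numbered libraries had correlations of deviations from -0.0593 to 0.0211, and differently numbered ones from -0.0321 to 0.063. These values give no sign that the numbers pair the samples, but they cannot settle it. With the replicate block, 112 genes passed, and Trem2 did (-0.99, edgeR adjusted p = 0.033).

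Apoe was the 1 pathway gene called under DESeq2, the robust fit, the replicate block, the covariate and without 5XFAD replicate 5 (0 to 1 with libraries left out). Called genes of the 2 plaque-associated lists, which leave out the 8 members, numbered 3 with no filter, 2 with the robust fit and 3 with the replicate block. They numbered 1 to 2 with libraries left out. Called microglia markers numbered 4 to 8, with 4 without 5XFAD replicate 2, 5XFAD replicate 4 or 5XFAD;Neu cKO replicate 5. With libraries left out, Inpp5d ranged from -0.11 to 0.18, turning to -0.11, -0.10 and -0.03 without 5XFAD replicate 4 and 5XFAD;Neu cKO replicates 2 and 5. Relative to the microglia markers, Trem2 ranged from -0.52 to -0.25, Tyrobp from -0.55 to -0.36, Syk from -0.89 to -0.23, Plcg2 from -0.53 to 0.0379 (above 0 without 5XFAD replicate 3), Inpp5d from 0.44 to 0.82 and Cd33 from -0.0033 to 0.60. Exact permutation p went under 0.05 without 5XFAD;Neu cKO replicate 4 for Trem2 (0.0159) and Syk (0.00794) and without 5XFAD;Neu cKO replicate 3 for Inpp5d (0.00794). The Inpp5d value largely restates the lower markers. Relative to Tyrobp, Trem2 ranged from -0.16 to 0.27, turning to -0.0029 and -0.16, Cd33 from 0.45 to 1.11 and Syk from -0.53 to 0.22, turning to 0.04, 0.12, 0.03, 0.08, 0.05 and 0.22. The cause of these shifts was not tested. DESeq2's independent filtering gave 7 of the 8 members no adjusted p, and filterByExpr removed Vav1 and Plcg2.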
